A study of Mus musculus with 6 samples.

Results

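The genes described here were chosen by name as heat shock chaperones of the cytosol and the mitochondria. They were followed in the hearts of mice that overexpress fatty acid synthase (FASN) in heart muscle. Members were taken by symbol: every gene whose annotated symbol begins with Hsp, Dnaj, Hsf and a digit, or Bag1 to Bag6. The endoplasmic reticulum chaperones Hspa5, Hsp90b1, Dnajb9, Dnajb11, Dnajc3 and Dnajc10 and the matrix proteoglycan Hspg2 were left out. This rule uses names only, so some genes of other places or functions remain. Examples are Dnajb14 of the endoplasmic reticulum membrane and Hspb11 of intraflagellar transport. The rule gave 76 of the 18193 genes that had a probe set with a single symbol. Each gene is represented by its brightest such probe set, and 46 of the 76 genes had several.

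The 3 groups compared were male mice labelled C57BL/6J. The high FASN group came from a transgenic line with high cardiac expression, the low FASN group from a separate line with low cardiac expression, and the B6 controls were age-matched mice, with no age given in the labels. In both lines the alpha-MHC promoter drove FASN, so that the transgene is expected in cardiomyocytes, and each expression level is represented by 1 line. Each group had 2 Affymetrix arrays, 6 in all. The labels number 2 samples per group without saying whether each is another animal, so the spread behind the p-values may be no more than technical. Because the tissue label reads transgenic for the B6 controls too, groups follow the sample titles.

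Heat shock proteins are chaperones: they bind unfolded or newly made proteins and help them fold, or pass them on for degradation. HSP70 proteins bind and release clients with the help of J-domain proteins (Dnaja, Dnajb and Dnajc genes), which deliver clients and start ATP hydrolysis, and of HSP110 and BAG proteins, which exchange the nucleotide. HSP90 acts later on signalling proteins and kinases, small heat shock proteins hold unfolded proteins without ATP and are abundant in striated muscle, and HSP60 with HSP10 forms the folding chamber of the mitochondrial matrix. Under stress the transcription factor HSF1 binds heat shock elements, inverted repeats of GAA, in the promoters of many of these genes.

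Signals were in arbitrary units, scaled so that the trimmed mean of each array was 300.002. Fasn, the gene of the transgene, read 2268 and 2104 in high FASN hearts, 462 and 481 in low FASN hearts, and 213 and 187 in B6 control hearts. The 10 cardiomyocyte markers were bright on all 6 arrays, with no marker below 8029. Values were compared as log2(signal + 16), so fold changes of dim genes are understated. Precision is limited by having 2 arrays per group. A difference is called where limma's moderated test gave a Benjamini-Hochberg adjusted p below 0.05 over all 22519 tested probe sets. Of the 76 members 64 were bright enough to be tested, and the other 12 (Dnajb3, Dnajb7, Dnajb8, Dnajb13, Dnajc5b, Dnajc5g, Dnajc6, Dnajc22, Hsf2bp, Hsf4, Hsf5 and Hspb9) never exceeded a signal of 72.7. In whole hearts, fewer cells of a type and less RNA per cell cannot be told apart.

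More chaperone genes were lower than higher in both lines. In high FASN hearts 15 of the 64 tested members were lower than in B6 control hearts and 2 were higher, against 6.96% of all 11498 tested genes lower and 9.97% higher. Low FASN hearts had 20 members lower and 3 higher, against 12.7% of all tested genes lower and 14.9% higher. The same shares of all tested genes stand beside the counts by role given below, and most roles hold few tested genes. The median log2 difference of the members was -0.07 in high FASN hearts, beside 0.04 for all tested genes, and -0.20 in low FASN hearts, beside 0.017. The members were brighter than most genes (median log2 signal 9.64, against 8.56 for all tested genes), which makes calls easier. Among 4715 genes within the middle range of the members' brightness, 9.76% were lower in high FASN hearts and 17.2% in low FASN hearts. Of the 32 members in that range, 21.9% were lower in high FASN hearts and 37.5% in low FASN hearts. Most changes were small: 4 of the 17 called members in high FASN hearts and 7 of the 23 in low FASN hearts changed by at least 1.5-fold.

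These counts rested in part on single arrays. Without B6 control replicate 1 the number of called members in high FASN hearts was 5, and without B6 control replicate 2 it was 6, against 17 with all arrays. For low FASN hearts the number was 12 without low FASN replicate 1, 15 without low FASN replicate 2, 14 without B6 control replicate 1 and 15 without B6 control replicate 2, against 23 with all arrays. Both lines were set against the same 2 control arrays, so a gene lower in both is not supported by separate controls. By gene, 8 members were lower in both lines (Hspa1a, Hspa1b, Hsph1, Dnajb4, Dnajc1, Dnajc12, Dnajc15 and Dnajc25), 2 were higher in both (Hspa12a and Hspb3), and none was called in opposite directions. Another 7 were called lower in high FASN hearts only and 12 in low FASN hearts only, 1 (Dnajc27) was called higher in low FASN hearts only, and 34 were called in neither line. Where a called member had several tested probe sets, another one was called the same way for 6 of 11 members in high FASN hearts and for 5 of 13 in low FASN hearts, and one was called the opposite way for 1 member, Dnaja2, in low FASN hearts.

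**Figure D1:**
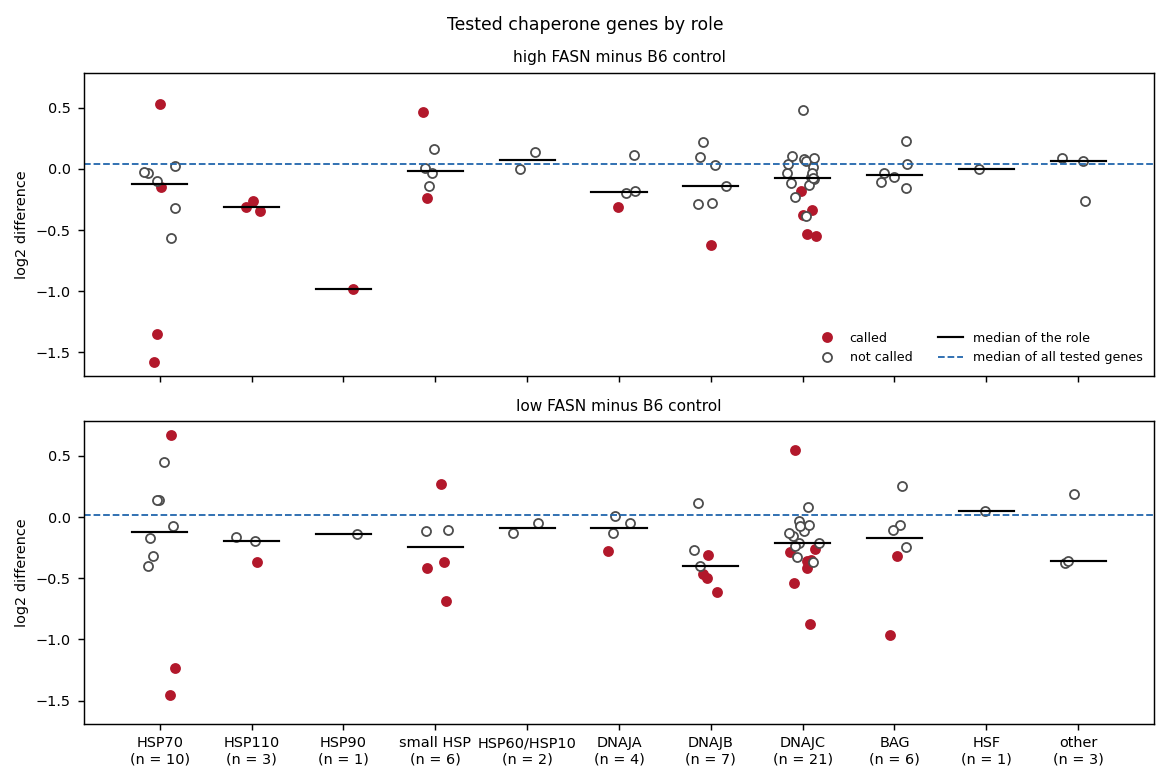
Log2 difference from B6 control hearts (vertical axis) of each of the 64 tested chaperone genes, grouped by role, in high FASN hearts (top) and low FASN hearts (bottom). Filled points passed the test, black bars are medians of a role and the dashed line is the median of all tested genes (0.04 and 0.017). The lowest points in both panels are the HSP70 genes Hspa1a and Hspa1b.

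On each gene's brightest probe set, the stress-inducible HSP70 genes showed the largest falls of the members in both lines. Hspa1a and Hspa1b encode nearly the same cytosolic HSP70, which is scarce in unstressed cells and made in quantity after heat or ischaemia. Hspa1a had signals of 140.3 and 197 in high FASN hearts, 171 and 195 in low FASN hearts, and 514 and 545 in B6 control hearts. It was 2.98-fold lower in high FASN hearts (log2 difference -1.58 ± 0.16, SE; limma adjusted p = 0.000294) and 2.74-fold lower in low FASN hearts (-1.45; limma adjusted p = 0.000257). The 2 lines overlapped each other, and both control arrays lay far above all 4 transgenic arrays.

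Hspa1b had signals of 403 and 448 in high FASN hearts, 445 and 478 in low FASN hearts, and 1103 and 1114 in B6 control hearts. It was 2.55-fold lower in high FASN hearts (log2 difference -1.35 ± 0.09, SE; limma adjusted p = 1.7e-05) and 2.36-fold lower in low FASN hearts (-1.24; limma adjusted p = 2.16e-05). Its other 2 probe sets fell as well, by 1.25 and 1.50 on the log2 scale in high FASN hearts and by 1.31 and 1.46 in low FASN hearts. The difference between the lines was not called for Hspa1a (limma adjusted p = 0.647) or Hspa1b (limma adjusted p = 0.416). Hspa1a and Hspa1b are close copies, so their probe sets may read both transcripts.

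The promoters of this pair are shown because both genes fell alike. The windows are from RefSeq (GRCm38.p6), run from 250 bases before to 50 bases after the annotated start, and lie on the minus strand at chr17:34972107-34972406 for Hspa1a and chr17:34959189-34959488 for Hspa1b. The gene bodies are 10120 bases apart. Capitals mark a heat shock element of 2 units, searched on both strands as GAANNTTC or TTCNNGAA.
Hspa1a: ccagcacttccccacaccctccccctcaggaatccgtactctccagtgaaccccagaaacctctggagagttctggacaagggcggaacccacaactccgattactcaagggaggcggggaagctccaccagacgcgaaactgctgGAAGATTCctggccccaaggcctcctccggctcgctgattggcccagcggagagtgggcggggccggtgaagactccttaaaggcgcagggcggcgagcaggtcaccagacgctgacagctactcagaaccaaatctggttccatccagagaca
Hspa1b: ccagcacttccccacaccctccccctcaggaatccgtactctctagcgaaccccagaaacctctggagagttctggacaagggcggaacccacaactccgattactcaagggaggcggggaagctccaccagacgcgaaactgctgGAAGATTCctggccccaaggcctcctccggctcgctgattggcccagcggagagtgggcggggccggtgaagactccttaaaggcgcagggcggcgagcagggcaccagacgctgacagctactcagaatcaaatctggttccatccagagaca
The windows were identical at 296 of 300 bases, and both held the element GAAGATTC at position -104 from the start.

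The other HSP70 genes changed less. Hspa8, the constitutive cytosolic HSP70 that drives clathrin uncoating and chaperone-mediated autophagy, read 16187 and 15853 in high FASN hearts, 16952 and 16883 in low FASN hearts, and 17683 and 17902 in B6 control hearts. It was 1.11-fold lower in high FASN hearts (log2 difference -0.15; limma adjusted p = 0.0479), a call that was lost with median centring and without any 1 of the low FASN or control arrays. Both of its other bright probe sets were also lower in high FASN hearts (-0.23 and -0.60). Hspa8 was not called in low FASN hearts on its brightest probe set (limma adjusted p = 0.267), while its dimmest tested probe set, at 221 and 203 in low FASN hearts against 93.3 and 59.8 in B6 control hearts, was higher by 1.32 on the log2 scale.

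Hspa12a, a distant HSP70 relative, was higher in both lines. It read 315 and 324 in high FASN hearts, 386 and 322 in low FASN hearts, and 233 and 199 in B6 control hearts, with log2 differences of 0.54 (limma adjusted p = 0.0265) and 0.67 (limma adjusted p = 0.00572). The call in high FASN hearts was lost under quantile normalization and without any 1 of the high FASN or control arrays, and that in low FASN hearts without low FASN replicate 1. None of its dimmer tested probe sets was called. Hspa2, an HSP70 best known from spermatogenesis, read 163 and 229 in high FASN hearts, 233 and 230.4 in low FASN hearts, and 214 and 203 in B6 control hearts, and was not called (limma adjusted p = 0.74 and 0.582). In all, 3 of the 10 HSP70 genes tested were lower and 1 higher in high FASN hearts, and 2 were lower and 1 higher in low FASN hearts. With 10 genes, the counts in low FASN hearts were near the shares of all tested genes, 12.7% lower and 14.9% higher.

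HSP110 proteins are relatives of HSP70 that act as its nucleotide exchange factors. On their brightest probe sets all 3 tested members were lower in high FASN hearts, and 1 of them, Hsph1, was lower in low FASN hearts. Hsph1 read 988 and 909 in high FASN hearts, 898 and 927 in low FASN hearts, and 1141 and 1217 in B6 control hearts. Its log2 differences were -0.31 (limma adjusted p = 0.0234) and -0.36 (limma adjusted p = 0.00681), and its second probe set was not called. The call in high FASN hearts was lost without high FASN replicate 2 (and without either control array), and that in low FASN hearts without low FASN replicate 1 or without B6 control replicate 2.

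Hspa4 read 3012 and 3187 in high FASN hearts, 3766 and 3147 in low FASN hearts, and 3935 and 3951 in B6 control hearts, and was lower in high FASN hearts (log2 difference -0.35; limma adjusted p = 0.0189), a call lost without high FASN replicate 1 or without either control array. The other tested probe sets of Hspa4 were not called in high FASN hearts, 1 of them at 0.0055. In low FASN hearts its probe sets disagreed, where one was lower (-0.41) and another higher (0.35). The third gene, Hspa4l, was named after its values were seen and was lower in high FASN hearts (-0.26; limma adjusted p = 0.0437).

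The Hsph1 promoter is one of 4 among the members, with those of Dnajb6, Hspd1 and Hspe1, that held a heat shock element of 3 units. It lies on the minus strand at chr5:149636287-149636586, with matches to the 2-unit letters in capitals.
Hsph1: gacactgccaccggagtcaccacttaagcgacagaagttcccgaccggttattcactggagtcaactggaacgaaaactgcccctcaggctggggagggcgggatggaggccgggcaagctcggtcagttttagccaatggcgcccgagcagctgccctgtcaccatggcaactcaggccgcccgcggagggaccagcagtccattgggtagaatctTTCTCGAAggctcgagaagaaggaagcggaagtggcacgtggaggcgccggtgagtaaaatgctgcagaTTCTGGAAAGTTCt
A 2-unit match stood at position -33, and the 3-unit run TTCTGGAAAGTTC began at position 37, after the annotated start.

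Hsp90aa1 separated the lines. It encodes the stress-responsive cytosolic HSP90 alpha, which holds kinases and steroid receptors in an activatable form. Its signals were 3849 and 4088 in high FASN hearts, 7033 and 7230.5 in low FASN hearts, and 7829 and 7907 in B6 control hearts. Thus both high FASN arrays lay far below the other 4. The gene was 1.98-fold lower in high FASN hearts than in B6 control hearts (log2 difference -0.99 ± 0.05, SE; limma adjusted p = 3.21e-06) and 1.79-fold lower than in low FASN hearts (-0.84; limma adjusted p = 2.72e-05). The difference of low FASN hearts from control, -0.14, did not pass the test (limma adjusted p = 0.074). The other 2 tested probe sets were lower in high FASN hearts than in B6 control hearts (log2 differences -0.65 and -0.68) and than in low FASN hearts (-0.47 and -0.60). Hsp90ab1, the constitutive HSP90 beta, was not analysed here because the annotation used gave it no probe set with a single symbol.

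**Figure D2:**
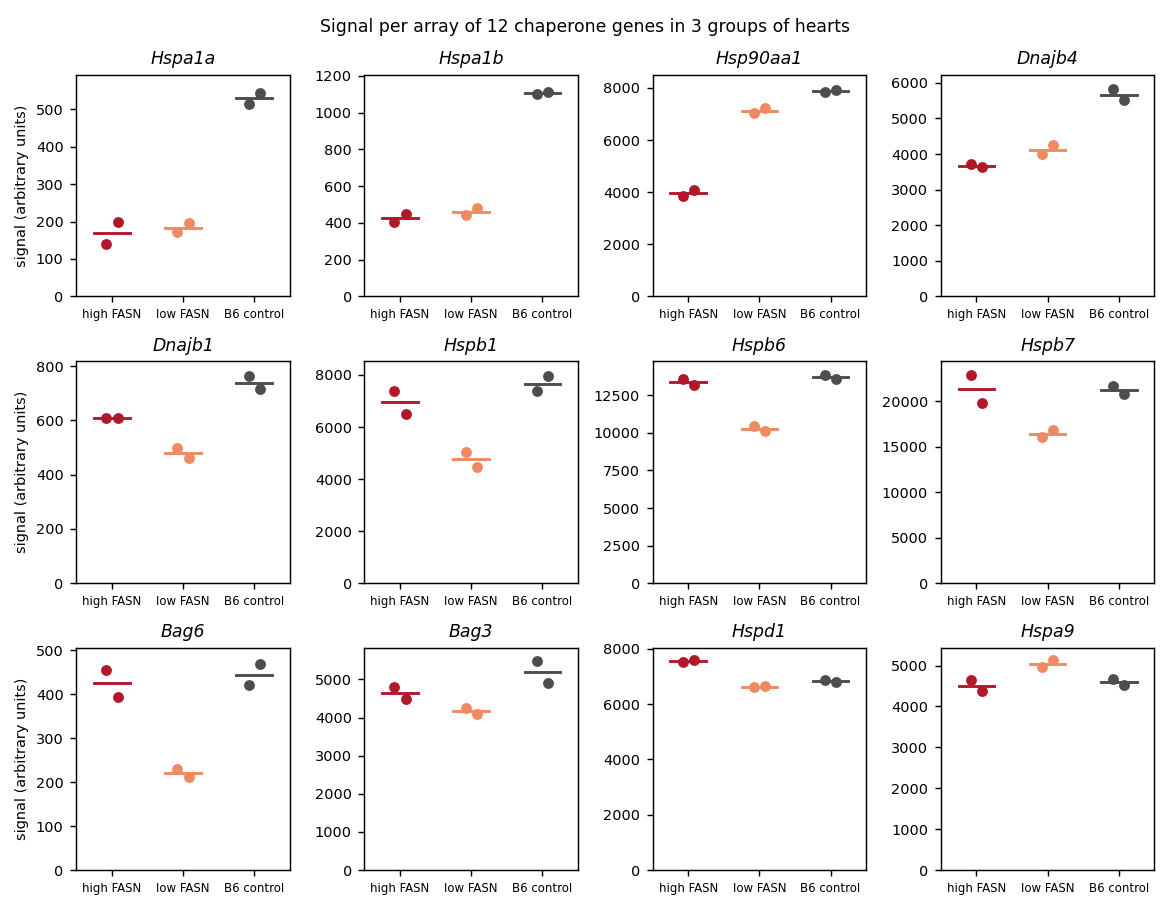
Signal per array (vertical axis, arbitrary units, from 0) of 12 chaperone genes in high FASN, low FASN and B6 control hearts. Points are arrays and bars are means of 2. Hspa1a, Hspa1b and Dnajb4 are low in both lines, Hsp90aa1 in high FASN hearts, and Bag6, Hspb1, Hspb6 and Hspb7 in low FASN hearts.

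Small heat shock proteins were lower mainly in low FASN hearts, where 3 of the 6 tested were lower and 1 higher. Only 1 was lower and 1 higher in high FASN hearts. Of all tested genes 12.7% were lower in low FASN hearts and 6.96% in high FASN hearts. Hspb1 (HSP27), which protects actin filaments under stress, read 7386 and 6519 in high FASN hearts, 5058 and 4473 in low FASN hearts, and 7386 and 7942 in B6 control hearts. The low FASN arrays lay below the other 4, and high FASN and control overlapped. Hspb1 was 1.61-fold lower in low FASN hearts than in control (log2 difference -0.69 ± 0.08, SE; limma adjusted p = 0.000292), not called in high FASN hearts (limma adjusted p = 0.267), and differed between the lines by 0.54 (limma adjusted p = 0.00181). Its second probe set was lower in low FASN hearts too (-0.85).

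Hspb6 (HSP20), a phosphoprotein of heart and smooth muscle that responds to beta-adrenergic signalling, read 13609.6 and 13209.6 in high FASN hearts, 10424 and 10139 in low FASN hearts, and 13865 and 13574 in B6 control hearts. It was 1.33-fold lower in low FASN hearts (log2 difference -0.42 ± 0.05, SE; limma adjusted p = 0.00026), and the lines differed by 0.38 (limma adjusted p = 0.000788). It was not called in high FASN hearts (limma adjusted p = 0.689).

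Hspb7, the cardiovascular small heat shock protein, read 22899 and 19833 in high FASN hearts, 16119 and 16800.4 in low FASN hearts, and 21656 and 20847 in B6 control hearts. On this probe set it was lower in low FASN hearts (log2 difference -0.37; limma adjusted p = 0.00367), and the lines differed by 0.37 (limma adjusted p = 0.00521). Both calls were lost without low FASN replicate 1, and the difference between the lines also under quantile normalization. Its dimmer probe sets gave larger falls and also fell in high FASN hearts. One read 3516 and 3494 in high FASN hearts, 1659 and 1757 in low FASN hearts, and 4762 and 4890.4 in B6 control hearts, or -0.46 in high FASN hearts and -1.49 in low FASN hearts on the log2 scale. The other gave -0.31 and -0.87. Hence the size of the fall in low FASN hearts, and whether Hspb7 fell in high FASN hearts, depended on the probe set.

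Hspb8 and Hspb3 went other ways. Hspb8 (HSP22), which works with BAG3 in clearing damaged muscle proteins, read 4964 and 4926 in high FASN hearts, 5400.4 and 5345 in low FASN hearts, and 5809 and 5839.6 in B6 control hearts. It was lower in high FASN hearts (log2 difference -0.24; limma adjusted p = 0.0101) and not called in low FASN hearts (limma adjusted p = 0.105), while a dimmer probe set was higher in low FASN hearts by 0.30. The call in high FASN hearts was lost without either control array. The other tested probe sets of Hspb8 were not called there, 1 of them at 0.12. Hspb3, a muscle small heat shock protein that pairs with HSPB2, read 903 and 876 in high FASN hearts, 762 and 788 in low FASN hearts, and 599 and 681 in B6 control hearts. It was higher in high FASN hearts (0.47; limma adjusted p = 0.00631) and in low FASN hearts (0.27; limma adjusted p = 0.0432), but the first call was lost without B6 control replicate 1. The second was lost under quantile normalization, median centring and cyclic loess, and without either low FASN array or B6 control replicate 1.

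The Hspb1 promoter is shown because Hspb1 differed between the lines on both of its probe sets and holds a pair of elements. It lies on the plus strand at chr5:135887669-135887968, with the matches in capitals at positions -117 and -97.
Hspb1: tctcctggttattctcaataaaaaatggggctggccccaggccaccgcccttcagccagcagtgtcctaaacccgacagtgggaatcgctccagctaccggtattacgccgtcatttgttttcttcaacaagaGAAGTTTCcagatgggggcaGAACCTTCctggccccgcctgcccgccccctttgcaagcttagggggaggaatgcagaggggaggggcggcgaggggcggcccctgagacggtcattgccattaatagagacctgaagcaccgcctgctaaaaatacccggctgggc

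On their brightest probe sets, the mitochondrial chaperone genes Hspd1, Hspe1 and Hspa9 differed little. Dnajc15, a mitochondrial J-protein gene called lower in both lines, is described below. Hspd1 (HSP60) read 7509.9 and 7586 in high FASN hearts, 6603 and 6641 in low FASN hearts, and 6887 and 6797 in B6 control hearts. Against control it was called in neither line (limma adjusted p = 0.0722 and 0.505). The lines differed by 0.19 (limma adjusted p = 0.0204), but this call was lost under quantile normalization, median centring and cyclic loess, and without either low FASN array. Hspe1 (HSP10), the lid of the same chamber, read 5955 and 5425 in high FASN hearts, 5153 and 5199 in low FASN hearts, and 5844 and 5509 in B6 control hearts, and was not called (limma adjusted p = 0.984 and 0.141). Hspa9 (mortalin), the HSP70 of the matrix and of protein import, read 4642 and 4377 in high FASN hearts, 4964 and 5126 in low FASN hearts, and 4665 and 4516 in B6 control hearts, and was not called (limma adjusted p = 0.792 and 0.0971). No tested probe set of Hspa9 was called, but in low FASN hearts their log2 differences from control ran from -0.69 to 0.14. The p-values of Hspd1, Hspe1 and Hspa9 do not show that the genes were unaltered.

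Hspd1 and Hspe1 are divergent neighbours, and their annotated gene bodies overlap at the start. The Hspe1 window, on the plus strand at chr1:55087898-55088197, is shown because it holds a run of 4 alternating heat shock units, in capitals from position -89.
Hspe1: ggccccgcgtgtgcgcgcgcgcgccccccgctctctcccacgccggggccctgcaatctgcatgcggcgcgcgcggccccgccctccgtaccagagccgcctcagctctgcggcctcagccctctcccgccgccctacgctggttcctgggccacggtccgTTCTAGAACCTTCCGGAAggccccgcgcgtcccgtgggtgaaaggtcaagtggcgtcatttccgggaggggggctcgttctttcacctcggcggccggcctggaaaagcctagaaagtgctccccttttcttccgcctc
A second annotated Hspd1 start, on the minus strand at chr1:55087883-55088182, has the same run in reverse from position -144, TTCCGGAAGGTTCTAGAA.

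J-domain proteins formed the largest group, with 32 tested. Of these, 7 were lower in high FASN hearts, and 12 were lower and 1 higher in low FASN hearts. Of all tested genes 6.96% were lower and 9.97% higher in high FASN hearts, and 12.7% and 14.9% in low FASN hearts. Dnajb4, a cytosolic partner of HSP70 that is prominent in muscle, read 3727 and 3626 in high FASN hearts, 3988 and 4244 in low FASN hearts, and 5828 and 5518 in B6 control hearts. It was 1.54-fold lower in high FASN hearts (log2 difference -0.62 ± 0.06, SE; limma adjusted p = 0.000126) and 1.38-fold lower in low FASN hearts (-0.46; limma adjusted p = 0.000419). Its second probe set was lower in high FASN hearts (-0.45) and not called in low FASN hearts.

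Dnajb1 (HSP40), the stress-inducible partner of HSPA1A, read 609 and 608 in high FASN hearts, 499.6 and 459.7 in low FASN hearts, and 763 and 716 in B6 control hearts. The 3 groups did not overlap. It was 1.53-fold lower in low FASN hearts than in control (log2 difference -0.61 ± 0.09, SE; limma adjusted p = 0.000959), and the lines differed by 0.33 (limma adjusted p = 0.025), a difference lost without any 1 of the 4 transgenic arrays. The limma adjusted p in high FASN hearts was 0.0636. Its second probe set was lower in low FASN hearts too (-0.53).

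Dnaja1, a farnesylated partner of HSC70, read 2250.2 and 2005 in high FASN hearts, 2559 and 2542 in low FASN hearts, and 2703 and 2588 in B6 control hearts. It was lower in high FASN hearts (log2 difference -0.31; limma adjusted p = 0.0132), a call lost without either control array, and lower than in low FASN hearts (-0.26; limma adjusted p = 0.0241), a difference lost without high FASN replicate 2 or either low FASN array. Its 2 dimmer probe sets were lower in both lines. One read 953 and 1076 in high FASN hearts, 1646 and 1731 in low FASN hearts, and 2236 and 2297 in B6 control hearts, or -1.15 and -0.42 on the log2 scale.

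Dnaja2 read 10468 and 9373 in high FASN hearts, 9252 and 9284 in low FASN hearts, and 11554 and 10952 in B6 control hearts, and was lower in low FASN hearts (log2 difference -0.28; limma adjusted p = 0.00855), a call lost without either low FASN array or B6 control replicate 1. A second probe set was lower in both lines (-0.53 in high FASN hearts and -0.30 in low FASN hearts), but a dim one was higher in low FASN hearts by 1.48. Dnajb5, another cytosolic J protein, read 515 and 490.4 in high FASN hearts, 461 and 528 in low FASN hearts, and 605 and 630.0 in B6 control hearts. It was lower in low FASN hearts (-0.31; limma adjusted p = 0.0401), a call that was lost without any 1 of the low FASN or control arrays.

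Among the Dnajc genes 5 were lower in high FASN hearts, and 7 were lower and 1 higher in low FASN hearts, of 21 tested. Dnajc12, which helps aromatic amino acid hydroxylases fold, read 511 and 601 in high FASN hearts, 421 and 456 in low FASN hearts, and 858 and 777 in B6 control hearts. Its log2 differences were -0.55 (limma adjusted p = 0.00785), lost without B6 control replicate 1, and -0.87 (limma adjusted p = 0.00037). Dnajc15, a J protein of the mitochondrial inner membrane, read 5873 and 6192 in high FASN hearts, 5587 and 5844 in low FASN hearts, and 6838 and 6829 in B6 control hearts, with log2 differences of -0.18 (limma adjusted p = 0.0461) and -0.26 (limma adjusted p = 0.00602). The first call was lost under quantile normalization and median centring, and held in only 1 of the 6 fits that leave out an array, that without high FASN replicate 2, while the second was lost without low FASN replicate 1. Dnajc25 was lower in both lines, at 356 and 313 in high FASN hearts, 304 and 289.8 in low FASN hearts, and 434 and 445 in B6 control hearts. Its log2 differences were -0.38 (limma adjusted p = 0.0459), lost without any 1 array other than high FASN replicate 1, and -0.54 (limma adjusted p = 0.00599), lost without low FASN replicate 2. Dnajc1 was lower in both lines and Dnajc7 in low FASN hearts, both named after their values were seen.

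Several J-protein genes differed between the lines. Dnajb14, a J protein anchored in the endoplasmic reticulum membrane, read 562 and 453 in high FASN hearts, 335 and 319.9 in low FASN hearts, and 482 and 458 in B6 control hearts, and the lines differed by 0.60 (limma adjusted p = 0.0074), a difference lost without low FASN replicate 2. Its relative Dnajb12 read 188 and 196 in high FASN hearts and 102 and 139 in low FASN hearts, a difference of 0.62 (limma adjusted p = 0.0375), with 169 and 157 in B6 control hearts. It was lost without any 1 array other than low FASN replicate 2. Dnajc16 was higher in high FASN hearts, at 438 and 396, than in low FASN hearts, at 322 and 276 (0.46; limma adjusted p = 0.0219), a difference lost without high FASN replicate 1 or low FASN replicate 2. Dnajc4 was likewise higher, at 743 and 894 against 577 and 684 (0.37; limma adjusted p = 0.0475), a difference lost under quantile normalization and without any 1 array other than high FASN replicate 1. In B6 control hearts Dnajc16 read 409 and 398, and Dnajc4 read 783 and 826. Against control, Dnajb14 (-0.50), Dnajc16 (-0.42) and Dnajc4 (-0.35) were lower in low FASN hearts (limma adjusted p = 0.0123, 0.0255 and 0.0474). Each of these calls was lost without either control array. That of Dnajb14 was also lost without either low FASN array, that of Dnajc16 without low FASN replicate 2, and that of Dnajc4 without low FASN replicate 1. None of these genes was called in high FASN hearts. The second probe sets of Dnajb14, Dnajb12 and Dnajc16 were not called, and that of Dnajb14 was at 0.28 in low FASN hearts against control. Dnajc27 rose in low FASN hearts (0.55; limma adjusted p = 0.0302), at 204 and 176 in high FASN hearts, 212 and 188 in low FASN hearts, and 138 and 125 in B6 control hearts, a call lost under quantile normalization and cyclic loess, and without any 1 of the low FASN or control arrays. A second Dnajc27 probe set was not called in low FASN hearts (0.074; limma adjusted p = 0.874). Dnajc17 was lower in high FASN hearts (-0.53; limma adjusted p = 0.0328), a call lost without high FASN replicate 2 or either control array.

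BAG proteins release clients from HSP70 and link it to other pathways. Of 6 tested, 2 were lower in low FASN hearts, beside 12.7% of all tested genes. Bag6, which captures mislocalised membrane proteins, read 454 and 394 in high FASN hearts, 229 and 211 in low FASN hearts, and 420.0 and 467 in B6 control hearts. The low FASN arrays lay below the other 4. Bag6 was not called in high FASN hearts (limma adjusted p = 0.769). It was 1.95-fold lower in low FASN hearts (log2 difference -0.96 ± 0.12, SE; limma adjusted p = 0.000441), and the lines differed by 0.90 (limma adjusted p = 0.00118). Bag6 had 1 probe set.

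Bag3, the partner of HSPB8 at the muscle Z-disc, read 4795 and 4492 in high FASN hearts, 4239 and 4086 in low FASN hearts, and 5471 and 4912 in B6 control hearts. It was lower in low FASN hearts (log2 difference -0.32; limma adjusted p = 0.00663), a call lost without low FASN replicate 2 or without B6 control replicate 1, and was not called in high FASN hearts (limma adjusted p = 0.139). Bag1 was not called (limma adjusted p = 0.754 in high FASN hearts and 0.441 in low FASN hearts). Of the heat shock factors only Hsf2 was tested, at 280.5 and 265 in high FASN hearts, 271 and 296 in low FASN hearts, and 271 and 275 in B6 control hearts, and it was not called (limma adjusted p = 0.997 and 0.796). Hsf1 was not analysed here, for want of a probe set with a single symbol in the annotation used. Outside these roles, Hspb11, a part of the intraflagellar transport machinery, was not called (limma adjusted p = 0.534 in high FASN hearts and 0.158 in low FASN hearts).

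The 31 members called in none of the 3 comparisons were, beside Hspa2, Hspa9, Hspe1, Bag1, Hsf2 and Hspb11, the HSP70 genes Hspa1l, Hspa12b, Hspa13 and Hspa14, the J-protein genes Dnaja3, Dnaja4, Dnajb2, Dnajb6, Dnajc2, Dnajc5, Dnajc8, Dnajc9, Dnajc11, Dnajc13, Dnajc14, Dnajc18, Dnajc21, Dnajc24, Dnajc28 and Dnajc30, Bag2, Bag4 and Bag5, and the HSP70 and HSPB1 binding protein genes Hspbp1 and Hspbap1. They are given for completeness and lie outside the naming rule. These calls are those of each gene's brightest probe set. A dimmer probe set was higher in low FASN hearts than in control for Dnaja4 (0.49) and Hspa13 (0.61). The same probe sets were lower in high FASN than in low FASN hearts (-0.65 and -0.59). A dimmer Dnaja3 probe set was higher in that comparison (0.45). For Dnajc5, 1 dimmer probe set was higher and 1 lower in low FASN hearts than in control. Hspa1l, 546 bases from Hspa1a, read 89.7 and 87.0 in high FASN hearts, 100.3 and 102 in low FASN hearts, and 138 and 139 in B6 control hearts, dim signals whose differences did not pass the test (limma adjusted p = 0.0596 and 0.13).

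**Figure D3:**
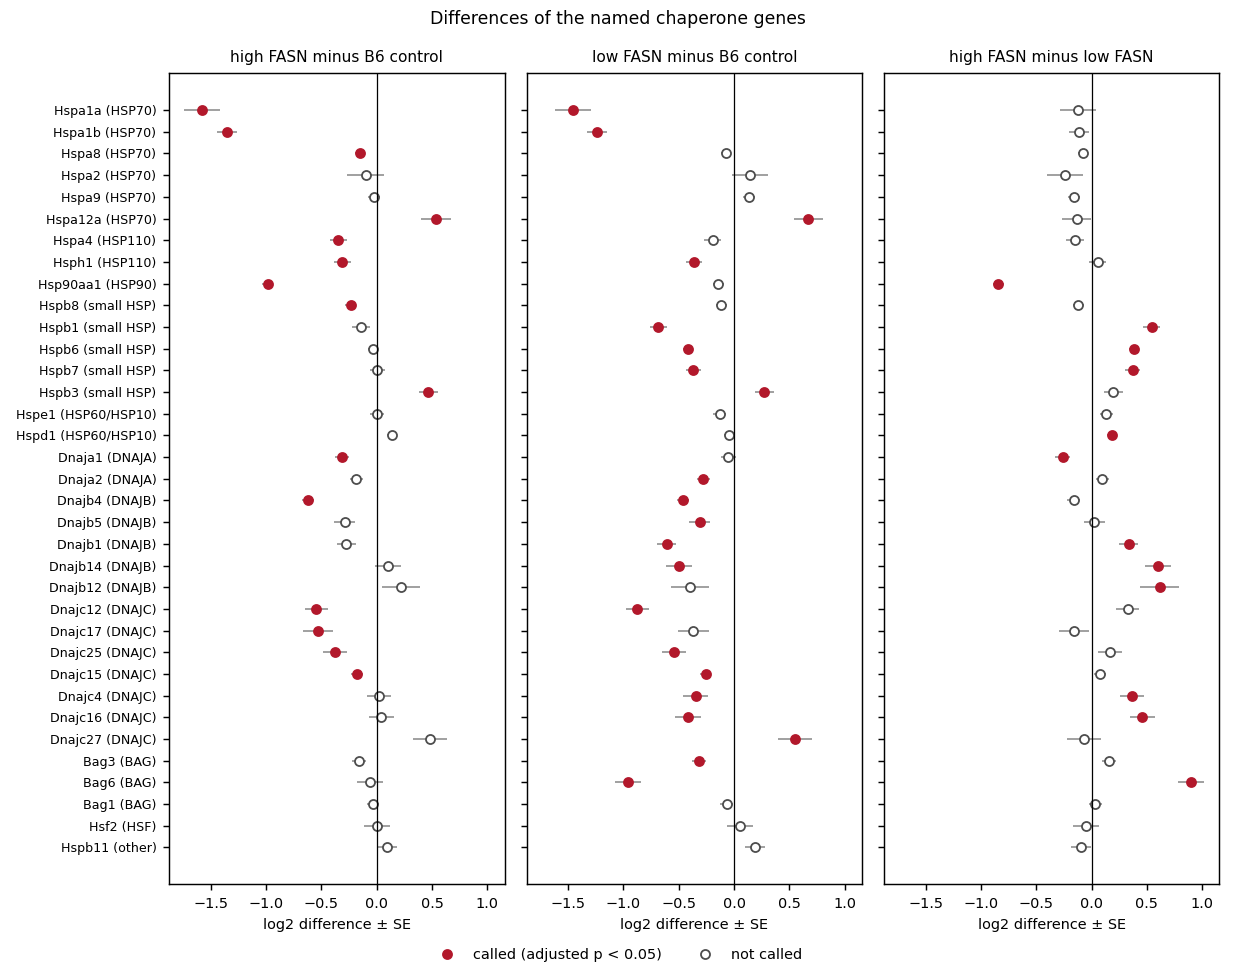
Log2 differences (horizontal axis) with standard errors of the 35 chaperone genes named by rule, for high FASN minus B6 control, low FASN minus B6 control and high FASN minus low FASN. Filled points passed the test. Hsp90aa1 is at -0.99, -0.14 and -0.84 in the 3 panels from left to right, and Bag6 at -0.06, -0.96 and 0.90.

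The direct comparison of the lines called 13 of the 64 members, 11 higher and 2 lower in high FASN than in low FASN hearts, beside 11.4% and 9.18% of all tested genes. Among the 4715 genes within the middle range of the members' brightness, 15.4% were higher and 14.1% lower. Of the 32 members in that range, 18.8% were higher and 0.0% lower. The 2 lower were Hsp90aa1 and Dnaja1. Of the 13, 2 had been called against control in high FASN hearts only, 8 in low FASN hearts only, and 3 (Hspd1, Dnajb12 and Hspb2, the last named after its values were seen) in neither. Without low FASN replicate 1 or without low FASN replicate 2 the count was 6. Scaling altered the split: under quantile normalization and under cyclic loess it was 9 higher and 6 lower. The lines were thus called different for 2 of the 7 genes lower in high FASN hearts only and for 8 of the 12 lower in low FASN hearts only. For the other genes called in 1 line, the comparison of the lines gave no call.

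**Figure D4:**
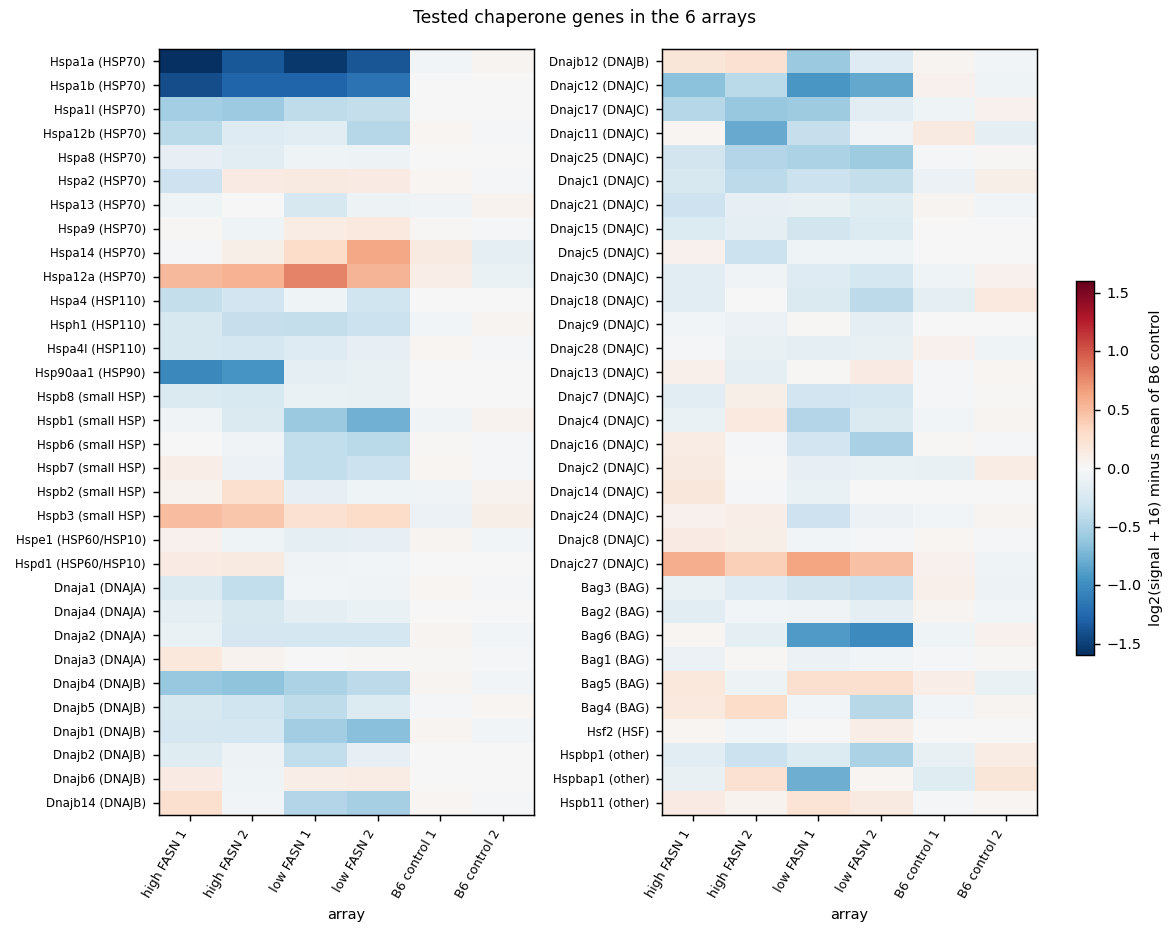
Log2(signal + 16) of the 64 tested chaperone genes on each of the 6 arrays, minus the mean of the B6 control arrays (colour; values beyond the scale take its end colour). Hspa1a and Hspa1b are dark blue on all 4 transgenic arrays, and Hsp90aa1 on the 2 high FASN arrays.

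Genes that fell were found both among promoters with a match to the 2-unit heat shock letters and among those without a match. Of 61 members with a RefSeq promoter window, 17 (27.9%) held the 2-unit element, against 17.0% of 27025 genes. The 3-unit element, GAANNTTCNNGAA or TTCNNGAANNTTC, was in 4 members (6.56%), against 0.66% of genes. In high FASN hearts 6 of the 15 tested members with the 2-unit element were lower and 6 of the 37 without it. Of the same genes, 7 of the 15 with it were lower in low FASN hearts and 12 of the 37 without it. Dnajb1 had no match in either of its windows. A match in this window is a description of the letters, not of binding, and the windows miss elements farther away. The search took exact letters only, so imperfect elements inside a window count as no match.

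Genes that work with these chaperones were followed through lists chosen by function, and the lists overlap. Chordc1 is in the co-chaperone and heat-inducible lists, and Sqstm1 in the heat-inducible and chaperone-assisted autophagy lists. The counts of these lists are therefore not independent. Of all tested genes 6.96% were lower and 9.97% higher in high FASN hearts, and 12.7% were lower and 14.9% higher in low FASN hearts. A share near these is not a result about a list. Of 21 co-chaperones of HSP90 and HSP70, 2 were lower and 3 higher in high FASN hearts, and 6 were lower and 4 higher in low FASN hearts. The shares in high FASN hearts were near those of all genes. Fkbp5, an HSP90 co-chaperone of the glucocorticoid receptor, read 267 and 301 in high FASN hearts, 277 and 324 in low FASN hearts, and 577 and 713 in B6 control hearts, with log2 differences of -1.13 and -1.06 (limma adjusted p = 0.00065 and 0.00052). Nudc, an HSP90 co-chaperone linked to the motor dynein, fell in low FASN hearts (-0.83), at 1962 and 2057 in high FASN hearts, 1182 and 1124 in low FASN hearts, and 2070.5 and 2049.7 in B6 control hearts. Cdc37, which brings kinases to HSP90, was also lower in low FASN hearts (-0.49). Chordc1, a heat-inducible HSP90 partner, was lower in both lines (-0.64 and -0.27).

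The cytosolic chaperonin TRiC and prefoldin, which fold actin and tubulin, had 8 and 6 tested genes. In high FASN hearts 1 of them, Cct8, was lower (-0.22). Lower in low FASN hearts were 2 TRiC genes, among them Cct7 (-0.25), and in prefoldin Pfdn2 was lower (-0.49) and Vbp1 higher (0.23). Of 14 genes of mitochondrial import and protein quality control, 1 was lower and 1 higher in high FASN hearts and 2 were lower in low FASN hearts, shares near or below those of all genes. Grpel1, the nucleotide exchange factor of mortalin, was 1 of those 2 (-0.30). Of 12 heat-inducible genes outside the family, 3 were lower in high FASN hearts, and 4 were lower and 1 higher in low FASN hearts. Serpinh1 (HSP47), the collagen chaperone, went opposite ways, lower in high FASN hearts (-0.33) and higher in low FASN hearts (0.50). Its signals were 3571 and 3586 in high FASN hearts, 6084 and 6671 in low FASN hearts, and 4539.9 and 4438 in B6 control hearts.

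Chaperone-assisted autophagy is the route by which BAG3 and HSPB8 clear damaged filamin at the Z-disc. Of 8 tested genes of this route, 3 were lower and 1 higher in high FASN hearts, and 7 were lower in low FASN hearts. Flnc, the muscle filamin, read 812 and 884 in high FASN hearts, 372 and 419.9 in low FASN hearts, and 796 and 809 in B6 control hearts (log2 difference -0.99 in low FASN hearts; limma adjusted p = 8.5e-05). Sqstm1, the p62 autophagy receptor, was lower in both lines (-0.35 and -0.64), as were Synpo2 (-0.33 and -0.51) and Map1lc3b (-0.32 and -0.32). The endoplasmic reticulum folding genes, a list that is not part of the chaperones chosen here, moved apart: of 16, 6 were lower in high FASN hearts, and 1 was lower and 6 higher in low FASN hearts, with 9 lower in high FASN than in low FASN hearts. Manf, a secreted stress factor of that compartment, was lower in high FASN hearts (-0.57) and higher in low FASN hearts (0.37).

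**Figure D5:**
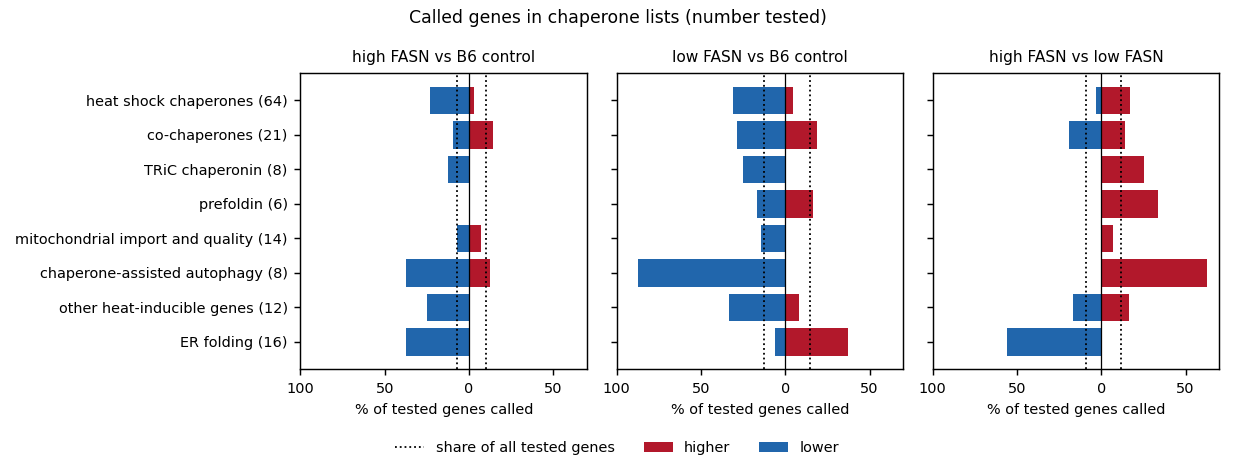
Share of tested genes called lower (bars to the left) and higher (bars to the right) in the heat shock chaperones and in 7 related lists, for high FASN against B6 control, low FASN against B6 control, and high FASN against low FASN hearts. Numbers in brackets are genes tested, and dotted lines are the shares of all tested genes.

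Other properties of the samples moved with the groups. Of 12 glucocorticoid-responsive genes, 8 were lower and 2 higher in high FASN hearts, and 10 were lower and 1 higher in low FASN hearts. Mt2, a metallothionein, read 1323 and 1344 in high FASN hearts, 1595 and 1441 in low FASN hearts, and 7678 and 8214 in B6 control hearts. Of 13 immediate early genes, 1 was lower and 2 higher in high FASN hearts, and 3 were lower and 7 higher in low FASN hearts, where Fos read 1205 and 1083 against 227 and 240.3 in B6 control hearts. Of 16 clock genes, 6 were lower and 2 higher in high FASN hearts, and 4 were lower and 5 higher in low FASN hearts. Cirbp, a cold-inducible RNA-binding protein, was higher in high FASN hearts (0.78; limma adjusted p = 0.00063). The part of these in the chaperone differences was not tested.

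Markers of other cells differed as well. The summed signal of 10 cardiomyocyte markers was 266047 and 240119 in high FASN hearts, 196249 and 199438 in low FASN hearts, and 215041 and 208057 in B6 control hearts. Of these markers 8 were higher in high FASN hearts, while in low FASN hearts 1 was higher and 1 lower. Of 6 airway markers 5 were tested and 4 were higher in high FASN hearts, where their sum was 3062 and 3244, against 297 and 261 in low FASN hearts and 176 and 245 in B6 control hearts. The 8 fibroblast markers summed to 44716 and 43779 in high FASN hearts, 47041 and 48828 in low FASN hearts, and 32372 and 31877 in B6 control hearts, with 6 higher in high FASN hearts and 7 in low FASN hearts. The 5 smooth muscle markers summed to 11899 and 11605 in high FASN hearts, 11691 and 11392 in low FASN hearts, and 5607 and 5466 in B6 control hearts, with 4 higher in each line and 1 lower in low FASN hearts.

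Defining genes of fat also differed between the groups. Adipoq, the fat hormone adiponectin, read 3485 and 3181 in high FASN hearts, 1678 and 1681 in low FASN hearts, and 138 and 97.5 in B6 control hearts. Ucp1, the brown fat uncoupling protein, read 846 and 799 in high FASN hearts, 185 and 232 in low FASN hearts, and 6.23 and 10.3 in B6 control hearts. Both were higher in both lines than in control, with no overlap between the 3 groups. The 7 adipocyte markers on the array summed to 29585 and 26731 in high FASN hearts, 23543 and 24099 in low FASN hearts, and 22400.3 and 21963 in B6 control hearts. Of the 6 tested, 4 were higher and 1 lower in high FASN hearts, and 3 were higher and 1 lower in low FASN hearts. Of 6 tested brown fat markers 2 were higher and 1 lower in high FASN hearts and 2 were higher in low FASN hearts, and 4 were higher and 1 lower in high FASN than in low FASN hearts. The 7 brown fat markers summed to 52669 and 46866 in high FASN hearts, 41443 and 42656 in low FASN hearts, and 46419 and 45663 in B6 control hearts.

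Markers of blood cells and vessels moved in different directions. The 8 macrophage markers summed to 12565 and 12534 in high FASN hearts, 15271 and 15714 in low FASN hearts, and 13904 and 13837 in B6 control hearts. Of these, 3 were lower in high FASN hearts, 2 were higher and 1 lower in low FASN hearts, and 5 were lower in high FASN than in low FASN hearts. The 5 neutrophil markers on the array summed to 178 and 190 in high FASN hearts, 218 and 209 in low FASN hearts, and 323 and 373 in B6 control hearts, and 2 of the 3 tested were lower in both lines. Of 7 endothelial markers 3 were higher in high FASN hearts, and 3 were higher and 1 lower in low FASN hearts. Their sum was 7059 and 6759 in high FASN hearts, 7108 and 7094 in low FASN hearts, and 5889 and 5769 in B6 control hearts. The 5 B cell markers summed to 575 and 563 in high FASN hearts, 2328 and 2340.4 in low FASN hearts, and 90.2 and 178 in B6 control hearts, and all 3 tested were higher in both lines.

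The ratio of 3' to 5' probe sets, a measure of RNA and labelling quality, was 0.91 and 0.88 for Gapdh in high FASN hearts, 0.81 and 0.80 in low FASN hearts, and 0.95 and 0.95 in B6 control hearts. For Actb the ratio was 2.52 and 2.40 in high FASN hearts and 2.31 and 2.32 in low FASN hearts. In B6 control hearts the Actb ratio was 2.62 and 2.71. The 18 hybridization control probe sets had a median log2 difference of 0.077 in high FASN hearts and -0.19 in low FASN hearts from B6 control hearts, although they do not come from the hearts. The part of these marker and quality measures in the chaperone differences was not tested.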

How the data were processed

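Total RNA of whole hearts was hybridised to 6 Affymetrix arrays. The authors deposited signal intensities on a linear scale, made with GCOS (Affymetrix software) per the submitters' processing notes, with no version given in the sources used here. The trimmed mean (2% off each end) was 300.002 in each deposited column, so the scaling was kept. Of 45037 probe sets that are not controls, the 22519 at or above the median of mean log2(signal + 16) were tested. In R 4.3.3, limma 3.58.1 fitted 3 group means to the 6 arrays together, with trended eBayes (residual df 3, prior df 6.43) and two-sided Benjamini-Hochberg adjusted p-values. The fit was tested on simulated data.

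Symbols came from the array annotation: 34945 probe sets had 1 symbol, 932 had several and 9160 were not listed or had no symbol. All 76 members were found in RefSeq (GRCm38.p6), which supplied promoter windows for 61 of them. Named members are a fixed panel, the 10 largest called differences of each comparison and the brightest of each role. Of each related list up to 4 genes with the smallest p are named. Members and lists were chosen with earlier results of these data known. Results were recomputed with other scalings, pseudocounts, filters, variance models, probe set choices, a replicate block, only the arrays compared, and each array left out. Figures used matplotlib 3.10.9 under Python 3.11.15.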

Additional observations from a re-analysis of the deposited data

Results flagged for a closer look

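The direct comparison of the lines (limma, Benjamini-Hochberg adjusted p below 0.05) called 13 of the 64 tested chaperone genes, or 20.3%. Of all tested genes 11.4% were higher and 9.18% lower in high FASN hearts. The number of chaperone genes called is thus near the share of all genes and is not a result about them. As high FASN minus low FASN on the log2 scale, Hsp90aa1 differed by -0.84 and Dnaja1 by -0.26. The small heat shock genes Hspb1, Hspb6, Hspb7 and Hspb2 differed by 0.54, 0.38, 0.37 and 0.26. The J-protein genes Dnajb12, Dnajb14, Dnajc16, Dnajc4 and Dnajb1 differed by 0.62, 0.60, 0.46, 0.37 and 0.33. Bag6 differed by 0.90 and Hspd1 by 0.19. Hspb2, named after its values were seen, was not followed through the alternatives. Of the others, only Hsp90aa1 and Bag6 kept this call in all alternatives tried. Hspb1 and Hspb6 lost it in 1, the variance model without an intensity trend (limma adjusted p = 0.0554 and 0.0537). Bag6 and Hspb6 have 1 probe set each, so the alternatives that change the probe set could not alter their calls.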

How the results depend on the processing

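Of 48 called differences of named members, 13 kept their call in all 19 alternatives: Hspa1a and Hspa1b in both lines, Hsp90aa1 in high FASN hearts and between the lines, Dnajb4 in high FASN hearts, Hspb1, Hspb6, Dnajb1 and Dnajc12 in low FASN hearts, and Bag6 in low FASN hearts and between the lines. The other 35 lost it in at least 1, 31 of them without the intensity trend and 14 without the filter. None reversed. The number of members called in high FASN hearts, 17, was 9 without the filter, 5 without the intensity trend, and 5 to 16 with 1 array left out. For low FASN hearts the number, 23, was 12 without the intensity trend, 15 by the median over probe sets, and 12 to 28 with 1 array left out. Between the lines the number, 13, was 8 without the filter, 2 without the intensity trend, and 6 to 14 with 1 array left out. The cause was not tested. The replicate numbers of the groups share only a label (correlations of same-numbered deviations 0.04, 0.027 and 0.0004). With the replicate block the numbers were 16, 25 and 13, and of the named calls only that of Hspa8 in high FASN hearts was lost.

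Some differences that were not called turned sign. In high FASN hearts Hspb7 was at -0.16 under quantile normalization (limma adjusted p = 0.0144), -0.024 under median centring, -0.00069 under cyclic loess and -0.31 by the median over probe sets. Dnajc16 was at -0.017, -0.0047 and -0.0034 under quantile normalization, cyclic loess and the median over probe sets, and Dnajc4 at -0.0097 under median centring. With 1 array left out, Bag6 lay between -0.16 and 0.035, Dnajb14 between -0.049 and 0.25, Dnajc16 between -0.028 and 0.11, Dnajc4 between -0.11 and 0.15, and Hspb7 between -0.099 and 0.11. In low FASN hearts Hspa8 was at 0.042 under quantile normalization, 0.052 under cyclic loess, 0.16 by the median over probe sets and 1.32 on its probe set without a suffix, and Hspd1 at 0.045 and 0.033 under quantile normalization and cyclic loess. No detection calls were used, so dim genes are the least certain.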
